A study of Arabidopsis thaliana with 4 samples.

Results

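The cuticular wax genes described here are 10 *Arabidopsis thaliana* loci, taken from the deposited expression table by locus identifier: *KCS1* (AT1G01120), *KCS6* (AT1G68530), *CER2* (AT4G24510), *CER1* (AT1G02205), *CER3* (AT5G57800), *CER4* (AT4G33790), *MAH1* (AT1G57750), *WSD1* (AT5G37300), *MYB94* (AT3G47600) and *MYB96* (AT5G62470). They are 10 of the 27655 genes in the table, and were chosen with earlier results of these data known. A gene was kept when it reached 1 FPKM (fragments per kilobase of exon scaled to the number of mapped fragments, so a level corrected for gene length and depth) in at least 1 library; 16374 genes were kept, among them 9 of the 10 wax genes.

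Leaf mRNA of 3-week-old, soil-grown plants was sequenced in 4 libraries, 1 for each condition, to ask how the level of *AtBBD1*, a nuclease gene, bears on gene expression under drought. The sample labels call the plants seedlings, and that leaves of soil-grown plants were used is stated by the study. Wild type (WT) was sampled at 0 h, before treatment, and WT, a line labelled p35S:*AtBBD1* and an *atbbd1* knock-out were sampled after 6 h of watering with 20% polyethylene glycol (PEG), which lowers the water available to roots. The study's methods name the overexpression line OX5-4, state a cassava vein mosaic virus promoter where the label states p35S, and describe *atbbd1* as a T-DNA insertion mutant; each genotype is 1 line, and the RNA of each library came from leaves of several plants pooled. The 3 libraries after PEG share the treatment, both comparisons with WT after PEG use the same WT library, and no library of OX5-4 or *atbbd1* without PEG, or of WT at 6 h without PEG, was analysed here. With 1 library per condition no difference could be tested. Ratios of FPKM are given with exact 95% binomial (Clopper-Pearson) intervals on the numbers of reads, which cover counting error only and not the spread between plants, and "2-fold" calls describe these libraries.

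Cuticular wax is the lipid layer that epidermal cells deposit on the outer surface of the shoot, where it limits the loss of water through the leaf surface. Fatty acids are first lengthened in the endoplasmic reticulum, each round being started by a 3-ketoacyl-CoA synthase (KCS), and the very long acyl chains are then turned into alkanes, secondary alcohols and ketones by one branch, or into primary alcohols and wax esters by the other. In leaves, alkanes are the main product, and MYB factors that respond to abscisic acid and drought switch on genes of the pathway.

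*AtBBD1* itself was at 95.5 FPKM in WT at 0 h, 541 in WT after PEG, 631 in OX5-4 and 36.6 in *atbbd1*. After PEG the OX5-4 library was thus 1.17-fold (1.14 to 1.19) above WT, a small excess, and the *atbbd1* library was 14.8-fold (13.9 to 15.7) below it. The libraries held an estimated 15321000 to 17684000 mapped fragments.

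The DNA just upstream of the 4 wax genes that passed 2-fold upwards in OX5-4, relative to WT under PEG (2.45% of all kept genes did), is shown here so that the regions from which these genes are transcribed can be read beside their levels. Each line holds the 300 bases before the most upstream annotated transcript start, 5′ to 3′ in the direction of the gene, from the RefSeq TAIR10.1 assembly: chr1:418116-418415 on the plus strand for *CER1*, chr5:23419884-23420183 on the plus strand for *CER3*, chr1:25715025-25715324 on the minus strand for *KCS6* and chr5:14767126-14767425 on the plus strand for *WSD1*. Capitals mark matches, on either strand, to 5 short motifs. The core of the abscisic acid response element was searched as ACGTG. The G-box, which contains that core, so that each of its matches is also a match to the core, was searched as CACGTG. MYB-type sites were searched in a form with a final adenine, spelled TAACTA. They were also searched in a second form with a final guanine instead, spelled TAACTG. The core of the dehydration response element was searched as CCGAC.
CER1: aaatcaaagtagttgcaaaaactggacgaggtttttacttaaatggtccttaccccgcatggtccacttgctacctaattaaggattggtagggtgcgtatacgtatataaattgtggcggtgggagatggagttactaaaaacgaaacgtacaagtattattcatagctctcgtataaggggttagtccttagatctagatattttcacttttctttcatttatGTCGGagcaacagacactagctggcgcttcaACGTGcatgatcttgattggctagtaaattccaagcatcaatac
CER3: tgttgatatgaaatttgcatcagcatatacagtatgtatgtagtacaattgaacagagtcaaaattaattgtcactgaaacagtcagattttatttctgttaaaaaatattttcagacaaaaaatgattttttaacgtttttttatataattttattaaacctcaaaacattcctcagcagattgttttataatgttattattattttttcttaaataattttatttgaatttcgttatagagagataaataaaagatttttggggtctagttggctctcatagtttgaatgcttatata
KCS6: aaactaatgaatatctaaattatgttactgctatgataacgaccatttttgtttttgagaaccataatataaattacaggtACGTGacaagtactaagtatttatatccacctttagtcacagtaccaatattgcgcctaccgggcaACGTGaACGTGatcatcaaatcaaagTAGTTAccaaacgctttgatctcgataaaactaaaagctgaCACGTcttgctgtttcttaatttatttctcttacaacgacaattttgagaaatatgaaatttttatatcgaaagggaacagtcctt
WSD1: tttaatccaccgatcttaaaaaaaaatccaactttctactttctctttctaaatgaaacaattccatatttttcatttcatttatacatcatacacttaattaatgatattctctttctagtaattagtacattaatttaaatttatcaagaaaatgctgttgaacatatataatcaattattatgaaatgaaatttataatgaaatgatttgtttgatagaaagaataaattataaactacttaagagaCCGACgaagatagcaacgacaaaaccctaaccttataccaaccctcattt
The abscisic acid core occurred in the windows of 4 of the 10 wax genes (*CER1*, *CER2*, *CER4* and *KCS6*), and in 25.6% of the same windows of all 27443 protein-coding genes. The *KCS6* window held 4 matches to it, beginning 219, 153, 147 and 86 bases before the start, and 1 MYB-type site of the adenine form. The *CER1* window held 1 abscisic acid core, 44 bases before the start, and 1 dehydration core, 75 bases before it. The adenine MYB form was in 3 of the 10 windows (*CER2*, *KCS6* and *MAH1*) and 24.2% of all windows, and the dehydration core in 3 of the 10 (*CER1*, *MAH1* and *WSD1*) and 13.9% of all. The G-box (7.09% of all windows) and the guanine MYB form (9.85%) were in 0 of the 10, and none of the 5 motifs was in the windows of *CER3*, *KCS1*, *MYB94* or *MYB96*. A match describes these letters only and is not evidence of a bound site.

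Chain elongation was represented by *KCS1*, *KCS6* and *CER2*. *KCS6* (chr1:25712414-25715024), the condensing enzyme that makes most of the longest wax precursors of the shoot, was at 123 FPKM in WT at 0 h, 78.8 in WT after PEG, 159 in OX5-4 and 41.0 in *atbbd1*. It had the highest level of the 10 genes in each library, and its lowest level was in *atbbd1*. After PEG it was 2.02-fold (1.93 to 2.1) higher in OX5-4 than in WT, at the edge of the 2-fold call, and 1.92-fold (1.81 to 2.03) lower in *atbbd1* than in WT. OX5-4 over *atbbd1* gave a ratio of 3.87 (3.68 to 4.08).

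*KCS1* (chr1:57164-59215), a condensing enzyme with a broader range of substrates, was at 45.9 FPKM in WT at 0 h, 34.7 in WT after PEG, 56.0 in OX5-4 and 33.4 in *atbbd1*. The *atbbd1* library lay at the WT level here, with a ratio to WT after PEG of 0.964 (0.888 to 1.05), and the OX5-4 library lay above it by 1.62-fold (1.5 to 1.74). *CER2* (chr4:12660687-12662656), a protein of the endoplasmic reticulum that lets the condensing enzymes extend the longest chains, was at 12.6 FPKM in WT at 0 h, 9.65 in WT after PEG, 17.0 in OX5-4 and 5.93 in *atbbd1*. Its ratios to WT after PEG were 1.76 (1.51 to 2.06) in OX5-4 and 0.615 (0.501 to 0.751) in *atbbd1*. Neither *KCS1* nor *CER2* was past 2-fold against WT in either genotype, and *CER2* was 2.87-fold (2.40 to 3.45) higher in OX5-4 than in *atbbd1*. On the opposite strand, 316 of the 1627 exonic bases of *CER2* are shared with the long non-coding RNA gene AT4G07275, whose level was not analysed here, and 96 with AT4G24520, which was at 18.5, 33.9, 31.7 and 24.4 FPKM across the libraries in that order. Whether reads were counted by strand is not given in the sources here, so reads from the shared stretches cannot be assigned.

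The relation between the condensing enzymes differed among the libraries. Within 1 library, *KCS6* was 2.68 (2.53 to 2.84) times the level of *KCS1* in WT at 0 h, 2.27 (2.12 to 2.43) times in WT after PEG, 2.84 (2.70 to 2.98) times in OX5-4 and 1.23 (1.14 to 1.32) times in *atbbd1*. The ratio in *atbbd1* was the lowest of the 4, and its counting interval did not overlap those of the other 3.

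**Figure D1:**
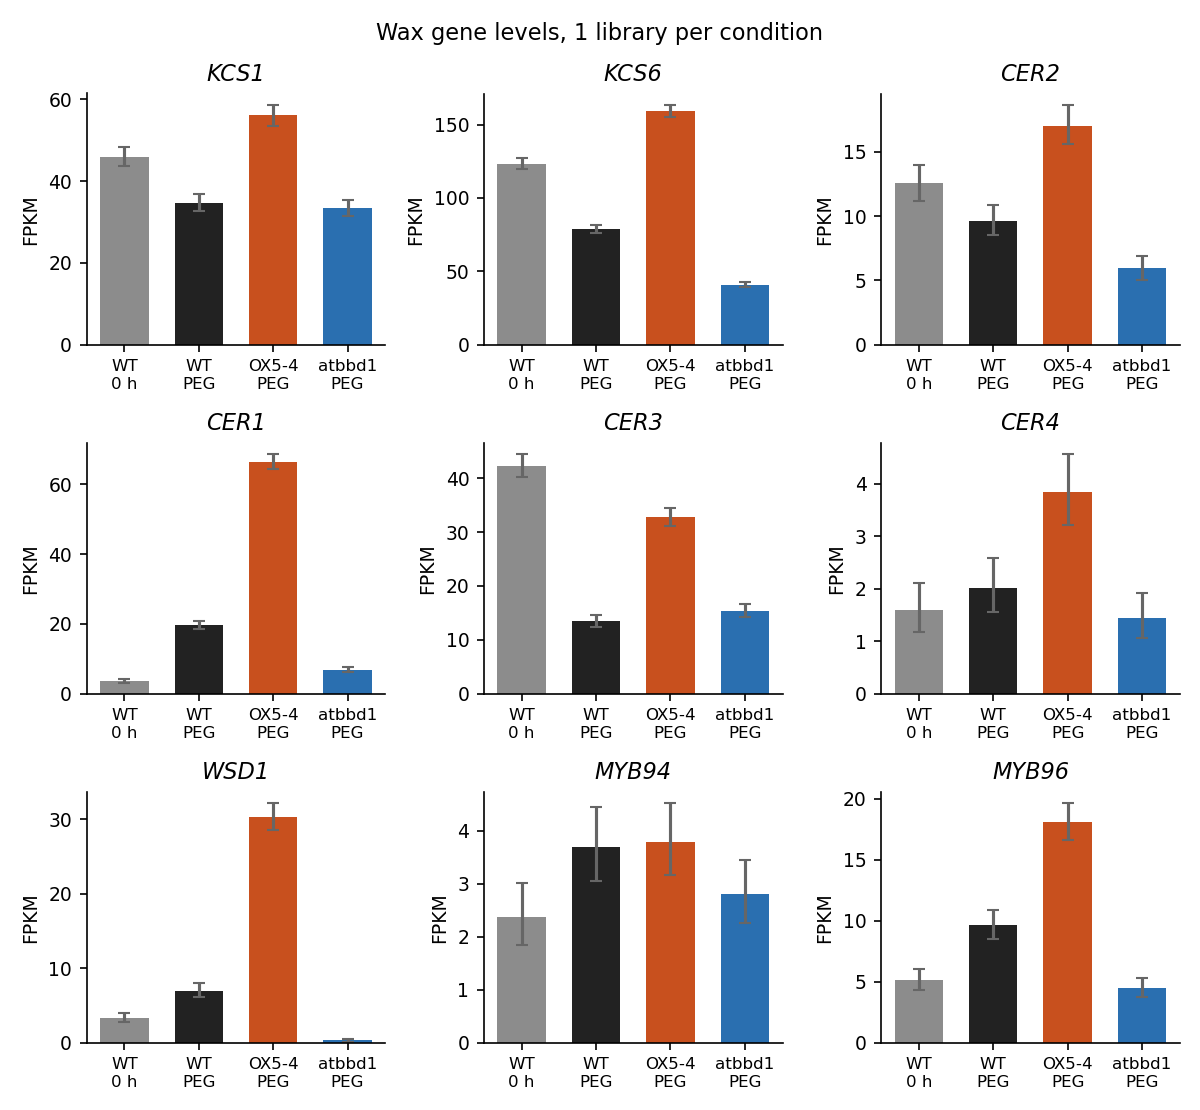
Level of each wax gene in FPKM (vertical axis, from 0, with its own scale in each panel) in the 4 libraries, 1 bar per library, with exact 95% Poisson counting intervals; *MAH1*, with 1 read over all 4 libraries, is left out. *KCS6*, *CER1* and *WSD1* have their highest bar in OX5-4 (159, 66.4 and 30.3 FPKM), and *CER3* has its highest in WT at 0 h (42.3 FPKM).

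Alkane formation was represented by *CER1* and *CER3*, whose products act together to turn very-long-chain acyl-CoA into alkanes. *CER1* (chr1:418416-422579) was at 3.67 FPKM in WT at 0 h, 19.7 in WT after PEG, 66.4 in OX5-4 and 6.94 in *atbbd1*. The OX5-4 library was the highest and WT at 0 h the lowest, with *atbbd1* nearer to the latter. *CER1* rose 5.36-fold (4.61 to 6.26) in WT with PEG. After PEG it was 3.38-fold (3.16 to 3.61) higher in OX5-4 than in WT, a difference larger than that of 99.7% of kept genes on the log2(FPKM + 1) scale, and 2.83-fold (2.53 to 3.17) lower in *atbbd1* than in WT.

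*CER3* (chr5:23420184-23424117) was at 42.3 FPKM in WT at 0 h, 13.6 in WT after PEG, 32.8 in OX5-4 and 15.4 in *atbbd1*. It was highest without PEG, and the WT and *atbbd1* libraries after PEG lay close together. *CER3* fell in WT with PEG to 0.32 (0.290 to 0.353) times its level at 0 h, the opposite direction to *CER1*. In OX5-4 it was 2.42-fold (2.19 to 2.67) higher than in the WT library under PEG. In *atbbd1* it was 1.14-fold (1.01 to 1.27) above WT, and of the 9 kept wax genes it was the only one above WT there.

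In WT the order of the alkane-forming partners was reversed between 0 h and 6 h of PEG. Within WT at 0 h, *CER1* was 0.0867 (0.0745 to 0.1) times the level of *CER3*. After PEG it was 1.45 (1.31 to 1.61) times the level of *CER3* in WT and 2.03 (1.91 to 2.15) times in OX5-4. In *atbbd1* after PEG, *CER1* was below *CER3*, at 0.451 (0.399 to 0.510) times its level, and their order in *atbbd1* without PEG is not known. None of the 4 counting intervals overlapped another.

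**Figure D2:**
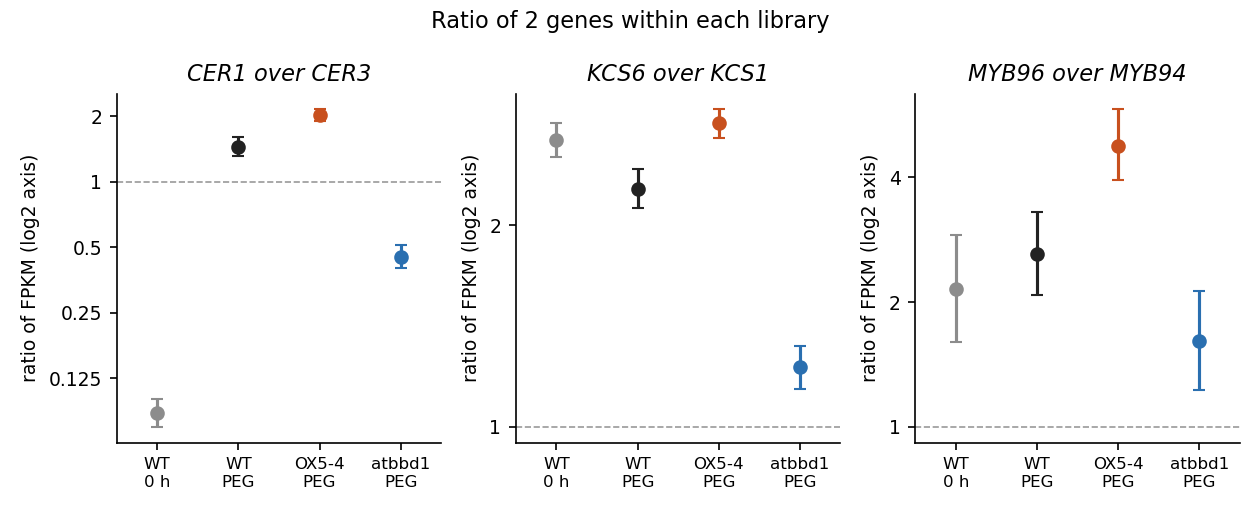
Ratio of the FPKM of 2 wax genes within each library (vertical axis, log2 scale) for *CER1* over *CER3*, *KCS6* over *KCS1* and *MYB96* over *MYB94*, 1 point per library with exact 95% counting intervals; dashed lines mark equal levels. *CER1* over *CER3* runs from 0.0867 in WT at 0 h to 2.03 in OX5-4, and *atbbd1* is the lowest of the libraries after PEG in all 3 panels.

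The alcohol and ester branch was represented by *CER4* and *WSD1*. *CER4* (chr4:16204096-16207956), the reductase that makes primary alcohols, was at 1.60 FPKM in WT at 0 h, 2.02 in WT after PEG, 3.84 in OX5-4 and 1.44 in *atbbd1*. The level was low in every library, from 48 to 133 reads, and only OX5-4 stood apart. Its ratio to WT after PEG was 1.90 (1.40 to 2.62) in OX5-4 and 0.713 (0.481 to 1.06) in *atbbd1*. The latter interval spanned equal levels, so a deficit in *atbbd1* beyond counting error was not detectable at this depth.

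*WSD1* (chr5:14767426-14770396), the synthase that joins primary alcohols to fatty acids as wax esters, was at 3.32 FPKM in WT at 0 h, 6.97 in WT after PEG, 30.3 in OX5-4 and 0.31 in *atbbd1*, that is 105, 226, 1103 and 11 reads. Of the 10 genes it had the widest range in fold over the libraries after PEG, with *atbbd1* below even the WT library at 0 h. Against WT after PEG it was 4.35-fold (3.75 to 5.02) higher in OX5-4 and 22.5-fold (12.2 to 45.1) lower in *atbbd1*. The size of the latter depends on the pseudocount, since the ratio of 0.0445 became 0.164, still past 2-fold, when 1 was added to each FPKM. Only 0.153% of kept genes had a larger difference in OX5-4 and only 0.244% a more negative one in *atbbd1*, on the log2(FPKM + 1) scale. In WT it rose 2.1-fold (1.66 to 2.67) with PEG, a value that dropped to 1.84 when 1 was added to each FPKM.

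*MAH1*, the cytochrome P450 enzyme that turns alkanes into secondary alcohols and ketones and is known from stems, was at 0 in WT at 0 h, WT after PEG and *atbbd1* and at 0.03 FPKM, which is 1 read, in OX5-4. A count of 0 allows up to 3 reads, or 0.101 FPKM in WT after PEG, so no ratio was formed, and whether its level differed was not detectable at this depth.

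The 2 regulators, MYB94 and MYB96, are closely related R2R3-type MYB factors that activate wax genes and are induced by drought. *MYB96* (chr5:25078991-25081141) was at 5.10 FPKM in WT at 0 h, 9.63 in WT after PEG, 18.1 in OX5-4 and 4.51 in *atbbd1*. The *atbbd1* library after PEG was close to WT without PEG, and OX5-4 was the highest. *MYB96* was 1.89-fold (1.53 to 2.33) above 0 h in WT after PEG and 1.88-fold (1.62 to 2.17) above WT in OX5-4, both short of 2-fold, and 2.14-fold (1.74 to 2.65) below WT in *atbbd1*. That last ratio of 0.468 was 0.504 when the libraries were scaled by the median of gene ratios and 0.518 with 1 added to each FPKM, which ends the call.

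*MYB94* (chr3:17539289-17541307) was at 2.37 FPKM in WT at 0 h, 3.69 in WT after PEG, 3.79 in OX5-4 and 2.80 in *atbbd1*. The WT and OX5-4 libraries after PEG were nearly level, with a ratio of 1.03 (0.788 to 1.34), and the *atbbd1* library was 0.759 (0.566 to 1.01) times WT. Both intervals spanned equal levels, so neither difference was beyond counting error at this depth. Within 1 library, *MYB96* was 2.15 (1.60 to 2.91) times the level of *MYB94* in WT at 0 h, 2.61 (2.08 to 3.29) times in WT after PEG, 4.77 (3.93 to 5.83) times in OX5-4 and 1.61 (1.23 to 2.13) times in *atbbd1*. The OX5-4 ratio lay above the intervals of the other 3. The transcripts of both genes match over 409 bases at 81.7% identity, with a longest identical stretch of 53 bases, and reads from such a stretch may have been split between them.

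Counted over the wax genes, the PEG comparison in WT went both ways and the genotype comparisons went mostly 1 way. With PEG in WT, 2 of the 9 kept wax genes (*CER1* and *WSD1*) rose at least 2-fold, beside 16.1% of all kept genes, and 1 (*CER3*) fell, beside 15.9%. The median difference in log2(FPKM + 1) was 0.22 for the wax genes and 0.04 for all kept genes. Those shares are near the background, and among wax genes that reached 5 FPKM in at least 1 library the median was -0.35.

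In OX5-4 against WT after PEG, 4 of the 9 (*KCS6*, *CER1*, *CER3* and *WSD1*) were at least 2-fold higher, beside 2.45% of all kept genes, and 0 were lower, beside 1.31%. The median difference in log2(FPKM + 1) was 0.84, beside 0.01 for all kept genes. All 9 FPKM values were above those of WT, from 1.03-fold for *MYB94* to 4.35-fold for *WSD1*. *KCS6* held its call by the narrowest margin and lay just under the threshold when the libraries were scaled by the median of gene ratios.

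In *atbbd1* against WT after PEG, 3 of the 9 (*CER1*, *WSD1* and *MYB96*) were at least 2-fold lower, beside 5.29% of all kept genes, and 0 were higher, beside 1.07%. The median difference was -0.62, beside -0.09 for all kept genes, which were themselves shifted downwards. *KCS1* and *CER3* were within 1.14-fold of WT.

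In OX5-4 against *atbbd1*, 7 of the 9 were at least 2-fold higher, beside 7.33% of all kept genes, and 0 were lower, beside 1.28%, with *KCS1* (1.68-fold, 1.56 to 1.80) and *MYB94* (1.35-fold, 1.03 to 1.80) short of the threshold. The median difference was 1.38, beside 0.09 for all kept genes. This comparison shares its libraries with the preceding ones and is not separate evidence. *CER3*, at 2.13-fold, dropped to 1.96-fold when the libraries were scaled by the median of gene ratios, and *CER4*, at 2.67-fold, to 1.98-fold with 1 added to each FPKM.

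**Figure D3:**
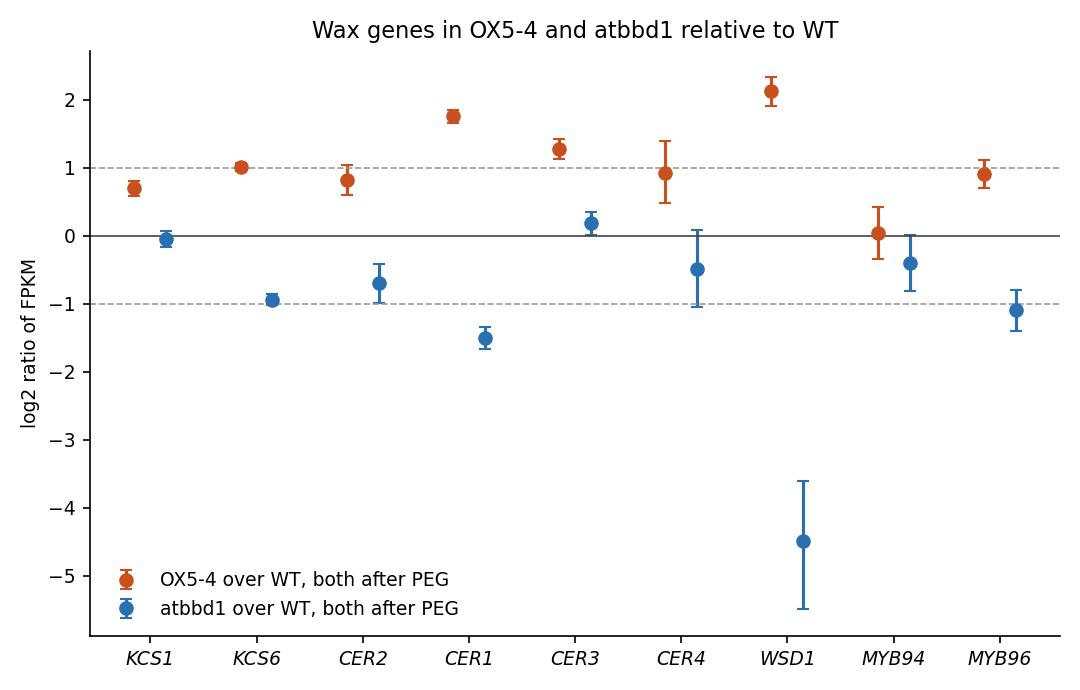
Log2 ratio of FPKM to WT, both after PEG (vertical axis), for the 9 kept wax genes in OX5-4 and *atbbd1*, 1 point per gene and genotype with exact 95% counting intervals; dashed lines mark 2-fold. The OX5-4 points of *KCS6*, *CER1*, *CER3* and *WSD1* lie above the upper line, and the *atbbd1* points of *CER1*, *WSD1* and *MYB96* lie below the lower line, *WSD1* being 22.5-fold lower.

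The summed level of the 10 genes was 240 FPKM in WT at 0 h, 179 in WT after PEG, 387 in OX5-4 and 112 in *atbbd1*. Their composition also differed among the libraries. *KCS6* made up 51.3% of the sum in WT at 0 h, 44.1% in WT after PEG, 41.1% in OX5-4 and 36.7% in *atbbd1*. *CER1* made up 1.53%, 11.0%, 17.2% and 6.21% in the same order, and *WSD1* 1.38%, 3.90%, 7.82% and 0.277%.

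The other genes of the pathway were read from 5 lists of known wax and cutin genes, 68 genes in all, of which 53 were kept. Between OX5-4 and WT under PEG, 4 of these 53 were at least 2-fold higher and 1 was lower, beside 2.45% and 1.31% of all kept genes, with a median difference in log2(FPKM + 1) of 0.15, beside 0.01. In *atbbd1* against WT, 0 were higher and 4 were lower, beside 1.07% and 5.29%, with a median of -0.05, beside -0.09. In WT after PEG against 0 h, 11 were higher and 4 lower, beside 16.1% and 15.9%, with a median of 0.07, beside 0.04. In OX5-4 against *atbbd1*, 7 were higher and 0 lower, beside 7.33% and 1.28%, with a median of 0.13, beside 0.09. The shares higher with PEG and lower in *atbbd1*, and the medians of those comparisons, are near those of all kept genes.

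Acyl elongation and acyl supply, the largest of the 5 lists with all 21 genes kept, held most of the genotype calls. In OX5-4, 3 were higher than in WT (*KCS2*, *KCS3* and *KCS5*) and 0 lower, beside 2.45% and 1.31% of all kept genes, with a median of 0.33. In *atbbd1*, 0 were higher and 3 lower (*KCS2*, *KCS3* and *KCR2*), beside 1.07% and 5.29%, with a median of -0.13. *KCS2*, a condensing enzyme best known for the suberin of roots, was at 11.8 FPKM in WT at 0 h, 6.31 in WT after PEG, 28.6 in OX5-4 and 0.46 in *atbbd1*. Like *WSD1*, it was lower in *atbbd1* than in any other library, at 16 reads. It was 4.53-fold (3.88 to 5.28) higher than WT under PEG in OX5-4 and 13.7-fold (8.25 to 24.5) lower in *atbbd1*, a difference of -2.32 in log2(FPKM + 1).

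*KCS3*, another member of the condensing enzyme family, was at 12.7 FPKM in WT at 0 h, 14.9 in WT after PEG, 43.5 in OX5-4 and 7.18 in *atbbd1*, the order of libraries that also holds for the lists of 4 values that follow. It was 2.91-fold (2.63 to 3.23) higher than WT under PEG in OX5-4 and 2.08-fold (1.78 to 2.42) lower in *atbbd1*. *KCS5*, the closest relative of *KCS6*, was far lower, at 0.50, 0.57, 1.43 and 0.62 FPKM, and was 2.51-fold (1.44 to 4.43) above WT under PEG in OX5-4. Other condensing enzymes did not follow them: *KCS8* was at 0.67, 10.03, 9.64 and 15.8 FPKM, *KCS12* at 0.77, 4.14, 3.57 and 5.78, and *KCS9* at 40.8, 29.0, 31.2 and 44.0, all 3 with their highest value after PEG in *atbbd1*.

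*KCR2*, the closest relative of the reductase gene *KCR1* and named here after its values were seen, was at 2.48, 1.73, 2.42 and 0.44 FPKM, with 9 reads in *atbbd1*, and was 3.93-fold (1.86 to 9.42) below WT under PEG there, a difference of -0.92 in log2(FPKM + 1). Shared parts of the elongation machinery stayed within 2-fold of WT under PEG in both genotypes. *KCR1*, the reductase of the elongation complex, was at 21.5, 17.2, 23.2 and 13.2 FPKM, and *CER10*, its enoyl-CoA reductase, at 23.7, 30.2, 41.6 and 25.8. *ACC1*, which makes the malonyl-CoA used in each round, was at 27.1, 11.9, 17.3 and 9.16 FPKM, and *LACS4*, which activates fatty acids, at 63.1, 49.3, 45.8 and 34.0.

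In the other genes of the alkane, alcohol and ester branches, 5 of 10 were kept. In OX5-4, 1 was higher than in WT and 0 lower, beside 2.45% and 1.31% of all kept genes. In *atbbd1*, 0 were higher and 0 lower, beside 1.07% and 5.29%. The one called in OX5-4 was AT3G49210, annotated as a WSD1-like acyltransferase, at 0.83, 1.16, 2.67 and 0.72 FPKM, which is 2.30-fold (1.59 to 3.41) above WT after PEG. AT1G02190, the gene whose transcript is most like that of *CER1*, stayed between 0.15 and 0.23 FPKM in the 4 libraries. The cytochrome b5 genes, whose products pass electrons to lipid-modifying enzymes including CER1, were at 7.60, 3.43, 3.16 and 2.85 FPKM for isoform B, 90.8, 16.8, 21.6 and 21.1 for isoform C, 109, 220, 211 and 174 for isoform D and 128, 140, 146 and 109 for isoform E.

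Wax and cutin export, with all 6 genes kept, had 0 calls in OX5-4 against WT, beside 2.45% upwards and 1.31% downwards of all kept genes. It also had 0 calls in *atbbd1*, beside 1.07% and 5.29%. Its medians were 0.44 in OX5-4, beside 0.01, and -0.12 in *atbbd1*, beside -0.09. At such shares, 0 calls among 6 genes cannot show that export was unchanged. *ABCG11* and *ABCG12*, transporters that carry wax across the plasma membrane, were at 19.6, 19.5, 30.1 and 15.8 FPKM and at 50.0, 35.3, 55.8 and 27.6 FPKM. *ABCG12* was 2.02-fold (1.88 to 2.16) higher in OX5-4 than in *atbbd1*, the only export gene past 2-fold there. Of all kept genes, 7.33% were at least 2-fold higher in that comparison. *LTPG1*, a lipid transfer protein anchored to the cell surface, was at 115, 67.5, 94.2 and 50.8 FPKM, and its relative *LTPG2* at 35.4, 23.0, 30.9 and 34.2. *ABCG32* was at 12.8, 10.7, 13.5 and 11.1 FPKM, and *ABCG13*, at 0.29, 1.82, 1.29 and 2.16, was the only one of the 6 to rise at least 2-fold in WT with PEG.

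Among 17 other wax regulators, 13 were kept. Against WT after PEG, 0 were past 2-fold in OX5-4, beside 2.45% upwards and 1.31% downwards of all kept genes. In *atbbd1* 0 were past it, beside 1.07% and 5.29%. The medians were -0.04 in OX5-4, beside 0.01, and 0.08 in *atbbd1*, beside -0.09. At such shares, 0 calls among 13 genes cannot show that the regulators were unchanged. In WT with PEG, 5 rose and 0 fell, beside 16.1% and 15.9% of all kept genes (median 0.53, beside 0.04). *DEWAX*, a repressor of wax genes that is known to be high in darkness, was at 14.8 FPKM in WT at 0 h, 106 in WT after PEG, 85.0 in OX5-4 and 110 in *atbbd1*. It rose 7.14-fold (6.30 to 8.10) in WT with PEG, alongside the activators *MYB30* (1.61, 5.69, 5.0 and 6.69 FPKM) and *SPL9* (0.88, 7.36, 9.02 and 4.99). AT5G07580, annotated as an ethylene-responsive factor, was at 15.5, 36.0, 25.8 and 47.8 FPKM, with its highest value in *atbbd1*. *SHN1*, an activator of wax and cutin genes, was at 0 in all 4 libraries.

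The remaining regulators named were within 2-fold of each other between the libraries after PEG. *CER7*, an exosome subunit that acts through *CER3*, was at 7.46, 5.86, 4.27 and 4.70 FPKM, and *RST1* at 2.74, 2.94, 3.55 and 2.86. *MYB106* was at 1.77, 1.10, 1.43 and 1.38 FPKM and *HDG1* at 2.80, 4.47, 3.67 and 5.84, which is 1.59-fold (1.33 to 1.91) lower in OX5-4 than in *atbbd1*.

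Cutin synthesis, the polymer side of the cuticle, was read from 14 genes, of which 8 were kept. Against WT after PEG, 0 of the 8 passed 2-fold upwards and 1 downwards in OX5-4, beside 2.45% and 1.31% of all kept genes. In *atbbd1* the counts were also 0 and 1, beside 1.07% and 5.29%. The medians were 0.05 in OX5-4, beside 0.01, and -0.03 in *atbbd1*, beside -0.09. With 8 genes, such counts cannot tell this list from all kept genes in either genotype. The one lower gene in each was *LTL1*, a lipase-like gene, at 0.17, 2.70, 0.29 and 0.56 FPKM, that is 9.31-fold (4.52 to 22.7) lower in OX5-4 and 4.82-fold (2.73 to 9.11) lower in *atbbd1*, or -1.52 and -1.25 in log2(FPKM + 1). *CYP86A2*, a fatty acid hydroxylase of cutin synthesis, was at 63.5, 37.3, 60.0 and 35.3 FPKM, and its relative *CYP86A8* at 4.81, 4.40, 4.70 and 5.47. The acyltransferases *GPAT4* (12.9, 14.0, 15.6 and 13.0 FPKM) and *GPAT8* (5.09, 9.74, 9.87 and 11.2), with *HTH* (5.18, 3.52, 3.44 and 3.23) and *DCR* (0.77, 1.11, 1.39 and 1.15), stayed within 2-fold of WT in both genotypes.

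**Figure D4:**
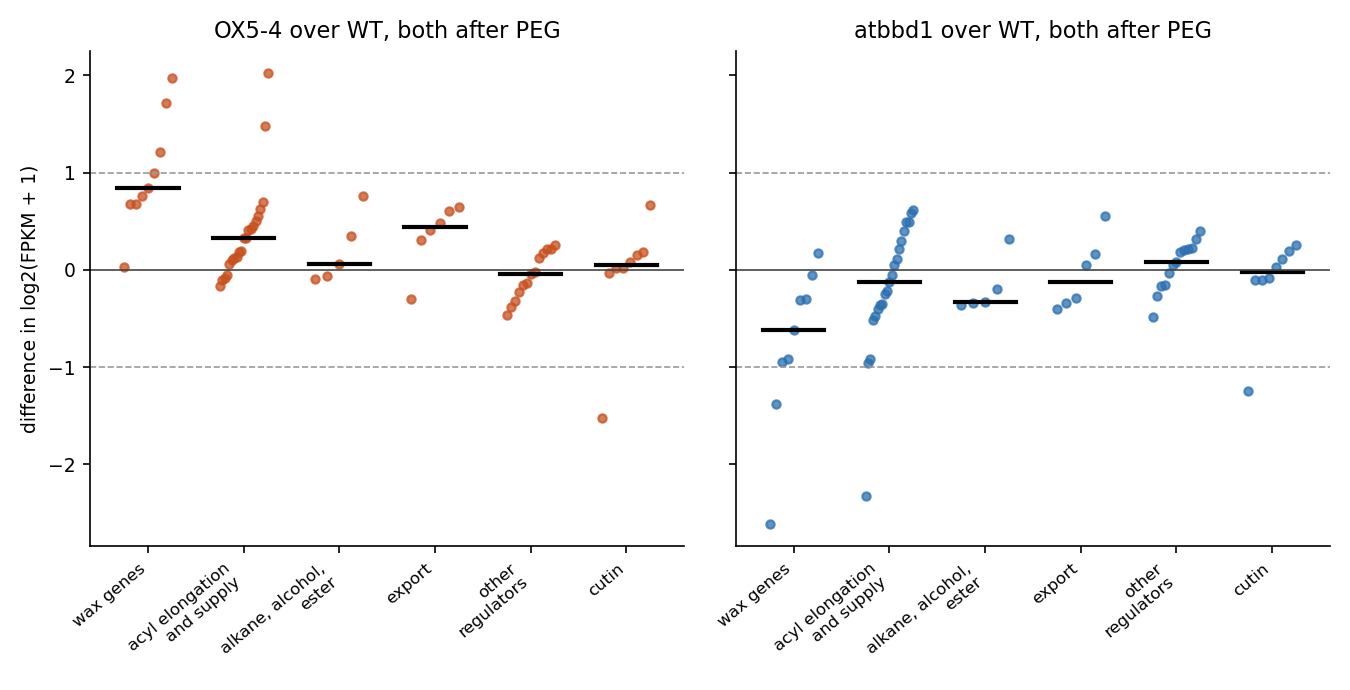
Difference in log2(FPKM + 1) to WT, both after PEG (vertical axis), for OX5-4 and *atbbd1*, 1 point per kept gene in the wax genes and the 5 pathway lists; black bars are list medians and dashed lines mark a difference of 1. The medians of the wax genes (0.84 in OX5-4 and -0.62 in *atbbd1*) lie farther from 0 than those of the 5 lists, and the farthest elongation gene, *KCS2*, is at 2.02 in OX5-4 and -2.32 in *atbbd1*, beside 1.97 and -2.61 for *WSD1*.

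Wax is made in the epidermis, and in a leaf sample fewer epidermal cells and less RNA per cell cannot be told apart, so markers were read beside these results. Of 6 epidermis genes 5 were kept, and 0 of them were past 2-fold in any of the 4 comparisons. Among all kept genes 1.07% to 16.1% were, in either direction taken singly. All 6 summed to 28.2 FPKM in WT at 0 h, 34.9 in WT after PEG, 37.3 in OX5-4 and 33.8 in *atbbd1*. *PDF2* and *ATML1* made up most of these sums. After PEG, *HDG2* was 1.22 times WT in OX5-4 and 0.731 times in *atbbd1*, and both counting intervals excluded equal levels. *ATML1* was above WT in both genotypes (1.22 and 1.15). *HDG12* went the other way from *HDG2* (0.862 and 1.26), within counting error. Guard cell markers summed to 17.8, 8.77, 7.91 and 10.2 FPKM, with *HT1* and *SLAC1* under 1 FPKM in all libraries. Trichome markers summed to 24.5, 1.00, 0.410 and 0.440 FPKM, vasculature markers to 87.3, 42.6, 52.1 and 73.2, mesophyll markers to 37276, 40326, 36121 and 45476 and flower markers to 2.32, 1.40, 1.34 and 1.66, and all 4 root markers were at 0. Sums hide single genes here. In WT with PEG, the trichome sum followed *TRY*, which fell from 24.1 to 0.70 FPKM, whereas *GL2* was at 0.31 and 0.30. The mesophyll sum was carried by *CAB1*, which rose 2.21-fold, whereas *CA1* and *RCA* fell at least 2-fold and the list's median difference in log2(FPKM + 1) was -0.89. All 3 kept guard cell genes were below 0 h, 1 of them by at least 2-fold. Of the 4 kept vasculature genes 3 were below 0 h, 2 of them by at least 2-fold. In that comparison 16.1% of all kept genes were at least 2-fold higher and 15.9% lower. In *atbbd1* against WT after PEG, all 4 kept vasculature genes and all 4 mesophyll genes were above WT, 1 of them (*SUC2*) by at least 2-fold. Among all kept genes 1.07% were at least 2-fold higher there. The part of these markers in the wax gene values was not tested.

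Clock genes also moved between 0 h and 6 h. Morning clock genes summed to 340 FPKM in WT at 0 h, 98.9 in WT after PEG, 103 in OX5-4 and 84.8 in *atbbd1*, and evening clock genes to 8.91, 259, 281 and 317. Time of day and PEG cannot be told apart in the WT comparison. This applies to every gene and marker value there, including those of *CER1*, *CER3*, *WSD1* and *DEWAX*. The morning sum after PEG is carried by *PRR7*, at 86.6 FPKM in WT, 87.8 in OX5-4 and 80.2 in *atbbd1*, and lower morning genes differed between the genotypes. *PRR9* was at 8.38 FPKM in WT after PEG, 8.29 in OX5-4 and 2.34 in *atbbd1*, 3.58-fold (2.81 to 4.63) below WT in the last. *CCA1* was at 3.55, 6.33 and 1.95 FPKM in these libraries, with ratios to WT of 1.78 (1.46 to 2.18) in OX5-4 and 0.549 (0.417 to 0.715) in *atbbd1*. Between OX5-4 and *atbbd1*, 2 of the 4 morning genes were higher in the former by at least 2-fold and 0 lower. Among all kept genes 7.33% were higher and 1.28% lower. The median difference in log2(FPKM + 1) was 0.72 for the morning genes, beside 0.09 for all kept genes. Of the 5 evening genes 0 were past 2-fold between any of the 3 libraries after PEG. In those comparisons 1.07% to 7.33% of all kept genes were past 2-fold in either direction taken singly. The part of these clock genes in the wax gene values was not tested.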

How the data were processed

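Leaf mRNA was sequenced in 4 libraries, 1 per condition, and samples were grouped by the submitters' titles. The deposited table holds FPKM per gene, made by the authors on TAIR10; TopHat2 and Cufflinks are named in the submitters' processing notes and HISAT2 in the paper's methods, and whether counting used strand is not stated there. No columns of the authors' own comparisons were used.

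The steps of low FPKM values gave each library's depth: with it, 99.2 to 99.3% of the values of single-transcript genes came within 0.15 of a whole number of reads, against 25.0 to 25.9% at other totals. Exon lengths came from the union of a gene's exons in the RefSeq TAIR10.1 annotation, which held 27445 of 27655 identifiers and gave whole reads for 99.7 to 100% of the multi-transcript values; reads and exact 95% binomial intervals on ratios followed from these. Genes needed 1 FPKM in at least 1 library. A 2-fold call was a ratio of FPKM of at least 2 in either direction, with no pseudocount; medians used log2(FPKM + 1) of the deposited values. A value of 0 was read as up to 3 reads. Ratios between libraries were also recomputed with other filters, scalings, pseudocounts and thresholds. The calculation was tested on simulated data.

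The text names all 10 wax genes, *AtBBD1*, the highest and lowest genes of each pathway list in the genotype and PEG comparisons, a set of well-known partners and *KCR2*, added after its values were seen; its paralog *AtBBD2* was at 68.6 FPKM in WT at 0 h, 198 in WT after PEG, 229 in OX5-4 and 140 in *atbbd1*. The wax genes and all lists were chosen with earlier results of these data known, and the pathway and marker lists were written from general knowledge and not from how genes moved. Upstream windows were read from the TAIR10.1 genome. Python 3.11.15, pandas 2.3.3, NumPy 2.4.6, SciPy 1.17.1 and matplotlib 3.10.9 were used.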

Additional observations from a re-analysis of the deposited data

How the results depend on the processing

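No paired analysis was possible because each condition has 1 library, so no replicate could be left out either. The counts of wax genes depended on the fold threshold, by construction. At 4-fold they were 1 higher and 0 lower for WT after PEG against 0 h, and 1 higher for OX5-4 against WT. They were 1 lower for *atbbd1* against WT and 3 higher for OX5-4 against *atbbd1*. At 1.5-fold they were 4 higher and 2 lower for WT after PEG against 0 h, and 8 higher for OX5-4 against WT. They were 5 lower for *atbbd1* against WT and 8 higher for OX5-4 against *atbbd1*. The shares of all kept genes past 4-fold and 1.5-fold were not computed, so whether these counts are unusual cannot be read. Adding 1 to each FPKM left 1 gene higher in WT after PEG. With only wax genes at 5 FPKM or more, fewer genes entered the median difference in log2(FPKM + 1), which became -0.35 for WT after PEG against 0 h, -0.92 for *atbbd1* against WT and 1.79 for OX5-4 against *atbbd1*. Of 108 gene ratios recomputed with other scalings or a pseudocount of 1, 1 changed side (*KCS1* in *atbbd1* against WT, 1.04 with median-of-ratios scaling), 6 changed their 2-fold call and 7 lay outside their 95% counting interval. These changes follow by arithmetic from the scaling of each library or from the added 1. Depth limits *CER4*, *MYB94*, *KCS5* and *MAH1*, and the spread between plants is unknown for every value.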
